A study of Mus musculus with 28 samples.

Results

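The histone mark H3K79me2 was compared between mouse lung tumours in 4 ChIP-seq libraries, 2 from tumours with floxed Mll4 alleles and 2 from tumours with mutant K-Ras alone. They were chosen as the peak lists of this mark whose file names begin with MLL (replicates 1 and 2) or RAS (replicates 3 and 4), 4 of the 28 samples and 4 of the 24 that have a peak list, with 151541 of the 950445 peaks. In ChIP-seq an antibody enriches the DNA that is wrapped around histones with a given modification, and a peak is a stretch where sequenced fragments pile up. Per the labels, the tumours carried either K-RasLSL-G12D or K-RasLSL-G12D;Mll4fl/fl and both kinds were induced with Ad-CMV-Cre, so mutant K-Ras and Cre are common to both groups. The sample labels leave the tumour type of each library unnamed, and the assignment rests on the file names, with MLL read as the genotype with floxed Mll4. Age, sex and strain are not given in the sources used here.

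Several features limit the tumours as a model. Ad-CMV-Cre is an adenovirus that expresses Cre from the CMV promoter, which is active in many cell types, so recombination is not limited to a chosen cell type. Whole tumour tissue (3 mg per antibody) was fixed, so other cells of the lung can contribute, and in such tissue fewer cells with a mark and less mark per cell cannot be told apart. The peak lists do not show whether Mll4 was deleted, and the cell type could not be checked against marker genes because no annotation of the files' genome build was used here. The numbers in the file names tie the 6 marks to 4 tumours. Nothing in the labels says whether these were separate animals, so the p-values measure only the spread between these libraries.

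H3K79me2 is placed by the methyltransferase Dot1l on the globular part of histone H3, and it lies over transcribed genes, strongest from just downstream of the promoter into the first part of the gene. Mll4 is a histone H3K4 methyltransferase known for placing H3K4me1 at enhancers. H3K4me3 marks active promoters, H3K27ac marks active promoters and enhancers, and H3K27me3 and H3K9me3 lie in repressed chromatin.

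H3K79me2 was called in fewer and longer pieces in the MLL libraries, while the length of genome covered overlapped between the groups. The 4 lists held 29104 and 29098 peaks in MLL replicates 1 and 2 and 39979 and 53360 peaks in RAS replicates 3 and 4. Both MLL lists were thus shorter than both RAS lists, with a log2 difference of -0.67 (exact two-sided permutation test, p = 0.333, adjusted p = 0.515). With 2 libraries against 2, 0.333 is the smallest p the test can give, so no comparison here could pass a threshold of 0.05, and adjusted values are Benjamini-Hochberg values over the 17 tests run. Peaks covered 140.9 and 155.8 Mb in the MLL libraries and 142.7 and 114.9 Mb in the RAS libraries, or 148.4 ± 10.6 against 128.8 ± 19.7 Mb (SD, n = 2). RAS replicate 3 covered more than MLL replicate 1, and the difference of 0.21 (log2) was not larger than the spread between libraries (exact permutation p = 0.667, adjusted p = 0.810). Without RAS replicate 4 it was 0.05, without RAS replicate 3 it was 0.37, and with the same number of best-scored peaks it was 0.39. The last setting cut almost only the RAS lists, so a larger difference was largely built in.

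Peaks separated by gaps of up to 1 kb were joined into domains. There were 18445 and 18766 domains in the MLL libraries and 21469 and 23266 in the RAS libraries. The median domain measured 3856 and 4116 bp in the MLL libraries and 2917 and 2179 bp in the RAS libraries, a ratio of 1.58 (log2 difference 0.66, exact permutation p = 0.333, adjusted p = 0.515), higher in MLL in 4 of 4 pairs of libraries. The difference was 0.17 with the same number of best-scored peaks from each library, 0.41 with gaps of up to 3 kb closed and 0.99 with gaps of 0 bp. The libraries differed most in the shortest domains. Domains under 1 kb numbered 321 and 764 in the MLL libraries against 4087 and 7300 in the RAS libraries, whereas those of 2 to 5 kb numbered 5508 and 5348 against 5515 and 5579.

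The shortest peaks the lists contain differed in the same way. The smallest peak was 494 and 568 bp in the MLL lists and 344 and 249 bp in the RAS lists, and peaks under 1 kb made up 1.97% and 4.82% against 25.3% and 45.4%. The smallest peak and the tumour type cannot be told apart here. Among domains of 2 kb or more the medians were 6097 and 6521.5 bp in the MLL libraries and 6016.5 and 5466 bp in the RAS libraries, a difference of 0.14 (log2). Domains of that size numbered 13144 and 13666 in the MLL libraries and 13058 and 12182 in the RAS libraries, so the sign of the difference in number turned from -0.26 to 0.09 (log2).

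**Figure D1:**
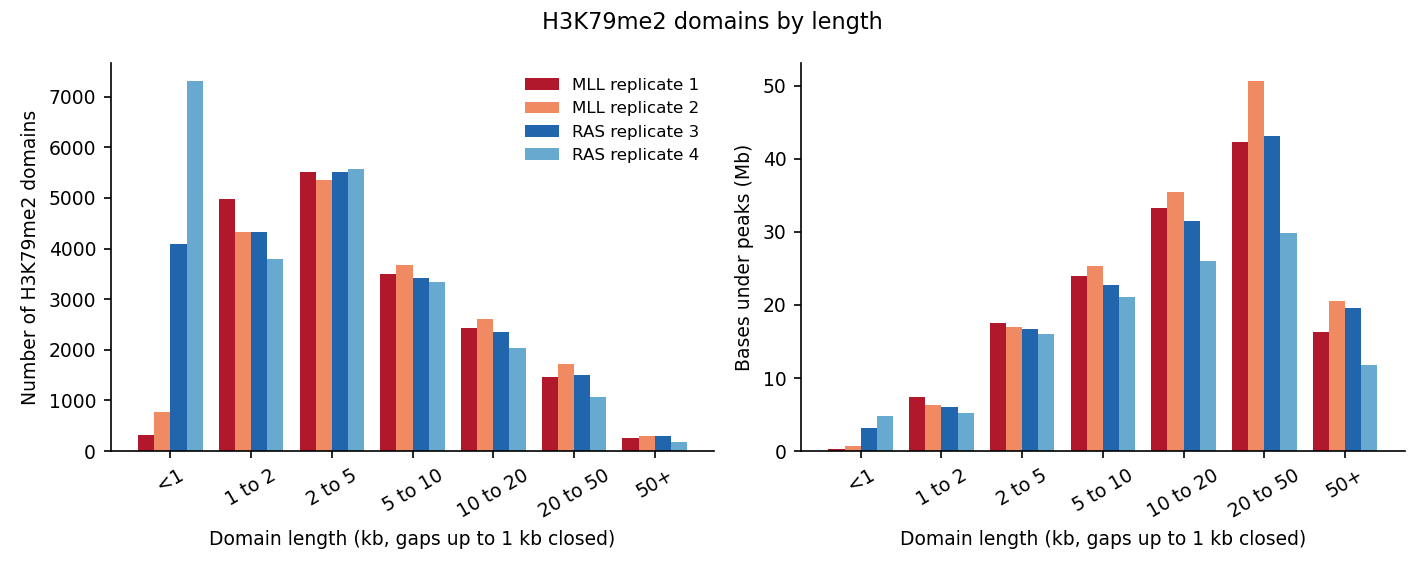
Number of H3K79me2 domains in each length class for the 4 libraries, with length classes in kb on the x axis and domains on the y axis. The 4 libraries separate in the class under 1 kb (321 to 7300 domains) and lie close together from 2 to 5 kb (5348 to 5579 domains).

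At the other end of the scale the groups overlapped. Domains of 20 kb or more numbered 1723 and 2032 in the MLL libraries and 1781 and 1241 in the RAS libraries, and the longest measured 174206, 205025, 165401 and 147403 bp in replicates 1 to 4. These long domains held 41.6% and 45.6% of the covered bases in the MLL libraries and 43.9% and 36.3% in the RAS libraries (exact permutation p = 0.667, adjusted p = 0.810). RAS replicate 4 was the lowest of the 4 in each of these measures. Without it the difference in share turned from 3.50 to -0.29 percentage points, and with gaps of up to 3 kb closed it was -1.58.

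Libraries of one group were not clearly more alike than libraries of different groups. The Jaccard index, the bases shared by 2 libraries over the bases in either, was 0.656 within MLL and 0.657 within RAS. Between the groups it was 0.628 and 0.660 for RAS replicate 3 with MLL replicates 1 and 2, and 0.535 and 0.545 for RAS replicate 4. The highest of the 6 values was therefore a pair from different groups, and the mean difference of 0.065 had an exact permutation p of 0.333 (adjusted p = 0.515). It was 0.012 without RAS replicate 4 and 0.116 without RAS replicate 3.

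The domains of the 4 libraries were then joined into 22171 union domains, and a library was taken to hold a union domain if a peak of it covered at least 1 bp. All 4 libraries shared 9382 domains (42.3%), called common domains here. Another 2671 were in 3 libraries, 1682 in 1 library of each group and 6800 in a single library. Both MLL libraries and neither RAS library held 1012 (MLL-only domains, 4.56% of union domains), and both RAS libraries and neither MLL library held 624 (RAS-only domains, 2.81% of union domains). In bases, 77.5 Mb of the 198.3 Mb covered in any library was covered in all 4. Both MLL libraries and neither RAS library covered 14.2 Mb, and both RAS libraries and neither MLL library covered 6.73 Mb. A further 41.1 Mb was covered in a single library.

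**Figure D2:**
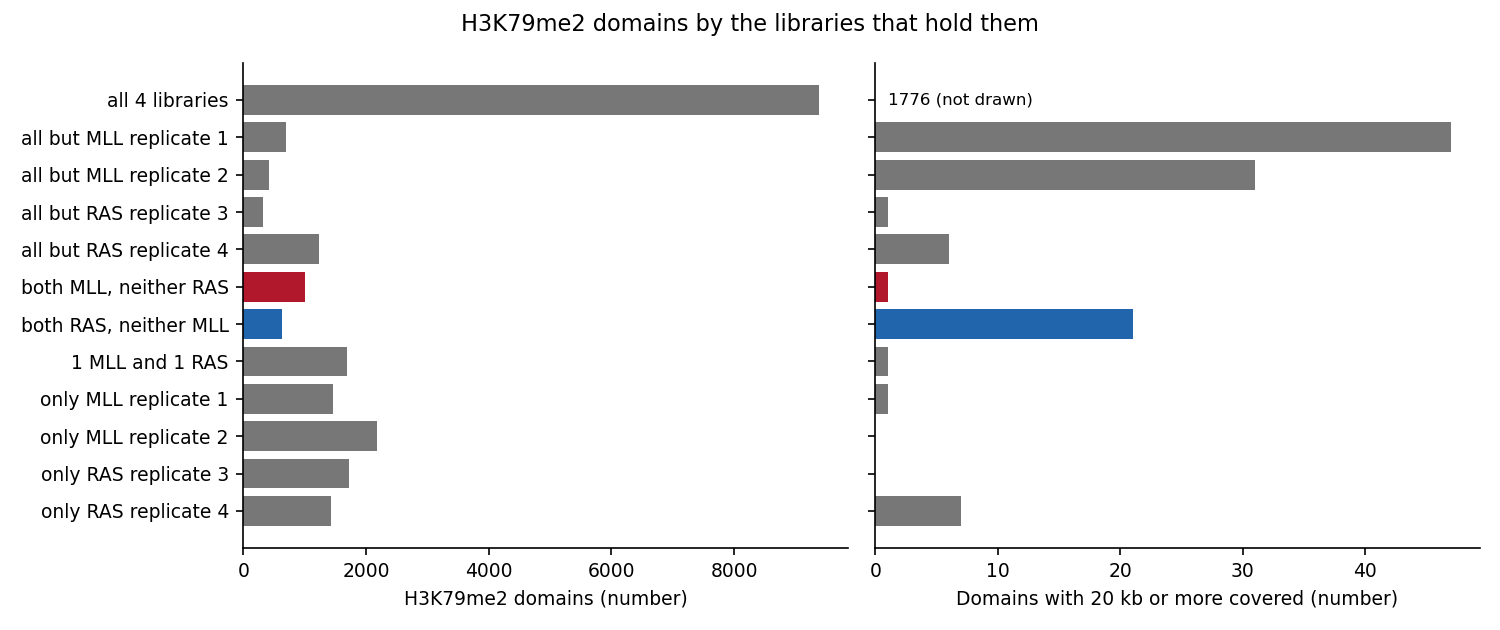
Union domains of H3K79me2 by the libraries that hold them, as numbers of all domains and of domains with 20 kb or more covered. MLL-only domains outnumber RAS-only domains (1012 against 624), and among those with 20 kb or more covered the order is turned (1 against 21).

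Common domains were long, and domains held by few libraries were short. The median span was 10894.5 bp for common domains, 3046 bp for MLL-only domains and 2202.5 bp for RAS-only domains, against 2182.5 bp for domains in 1 library of each group and 1165 bp for those in a single library. The median of the best peak score in the authors' lists was 1057, 127 and 137 in the same order. What the score measures is not stated in the sources used here, and a score made from a p-value would grow with width and depth. MLL-only domains also lay further from common domains, with a median distance of 43684.5 bp against 13600 bp for RAS-only domains. Of the MLL-only domains 27.5% lay within 10 kb of a common domain and 31.5% beyond 100 kb, against 42.6% and 12.7% of the RAS-only domains.

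The number of domains of a single group depended on the settings. With gaps of 0 bp there were 1697 MLL-only and 1325 RAS-only domains, and with gaps of up to 3 kb 606 and 344. With the same number of best-scored peaks from each library, 29098, there were 2027 MLL-only and 189 RAS-only domains. This setting cut almost only the RAS lists, as the MLL lists held 29104 and 29098 peaks. More MLL-only and fewer RAS-only domains were thus largely built in. RAS-only domains dropped to 336 when MLL peaks within 5 kb also counted as presence, and to 338 among union domains of 2 kb or more. MLL-only domains dropped to 676 when RAS peaks within 5 kb counted, and to 773 among union domains of 2 kb or more. Leaving out a library drops one of the conditions for such a domain, so a higher number is built in. Leaving out any single library changed the RAS-only number by over 1.5 times (1199 to 2485), and so did leaving out MLL replicate 1, MLL replicate 2 or RAS replicate 3 for the MLL-only number (up to 3518).

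Common domains were covered over a somewhat greater length in the MLL libraries. The median covered length per common domain was 8122.5 and 8965.5 bp in the MLL libraries and 7682.5 and 5559.5 bp in the RAS libraries. Measured against the mean of the 4 libraries, the median log2 value was 0.10 and 0.17 in MLL, 0.00 in RAS replicate 3 and -0.35 in RAS replicate 4 (difference 0.31, exact permutation p = 0.333, adjusted p = 0.515), and the difference was 0.15 without RAS replicate 4 and 0.50 without RAS replicate 3. In 4852 common domains (51.7% of common domains) both MLL libraries were above both RAS libraries, and in 394 (4.2% of common domains) both RAS libraries were above both MLL libraries. After each library's own median was subtracted these numbers were 1873 and 2612, so the balance between the directions turned with the scaling. The log2 ratio of MLL over RAS decreased with domain length, from a median of 0.73 in common domains with under 2 kb covered to 0.15 in those with 20 kb or more. Against the mean of the 4 libraries, the medians under 2 kb were 0.22 and 0.33 in MLL, -0.15 in RAS replicate 3 and -0.87 in RAS replicate 4, and at 20 kb or more 0.07, 0.11, 0.03 and -0.17, so RAS replicate 4 lay furthest from the others in both.

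Few long common domains differed widely in length between the groups. Over the 3744 common domains with a mean of 10 kb or more covered, the median log2 ratio of MLL over RAS was 0.19. A difference of over 2-fold was found in 159 domains (4.25%) toward MLL and in 55 (1.47%) toward RAS. The 55 domains covered more in RAS had medians of 15085 and 12054 bp in the MLL libraries and 55599 and 58058 bp in the RAS libraries. H3K27ac lay on 85.5% and 94.5% of them in the MLL tumours and on all of them in the RAS tumours, and H3K4me1 on 87.3%, 96.4%, 98.2% and 100% in replicates 1 to 4. Over all 3744 domains the values were 85.8%, 93.8%, 93.3% and 92.7% for H3K27ac and 87.0%, 94.3%, 95.1% and 91.3% for H3K4me1. By length, H3K27ac covered medians of 2570, 11388, 17855 and 17536 bp of the 55 and 953.5, 2601, 4277.5 and 3842.5 bp of the 3744, whose H3K79me2 medians were 19616, 21449, 19788.5 and 15813 bp. The 159 domains covered more in MLL had medians of 20768 and 23103 bp in the MLL libraries and 11077 and 4129 bp in the RAS libraries. H3K27ac lay on 69.2% and 61.6% of these in the MLL tumours and on 71.1% and 68.6% in the RAS tumours, and H3K4me1 on 76.1%, 93.1%, 67.3% and 66.0%.

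The 3 common domains with the largest ratio toward RAS showed where this was most extreme. The first, chr8:125423005-125572154 (mm9, as are all positions here, counted from 1), was covered over 1271 and 3582 bp in the MLL libraries and over 147813 and 145061 bp in the RAS libraries. The second, chr4:154863595-154936398, was covered over 3948, 2210, 66932 and 59585 bp in replicates 1 to 4. The third, chr15:58791907-58913372, was covered over 3344, 4646, 44247 and 118397 bp. All 3 held H3K27ac, H3K4me1 and H3K4me3 peaks in all 4 tumours. In the MLL libraries H3K79me2 thus covered a small part of 3 regions that carried the active marks in the same tumours.

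The 3 with the largest ratio toward MLL were shorter. At chr19:40526115-40562169 the covered length was 29041 and 32148 bp in the MLL libraries and 1675 and 1523 bp in the RAS libraries, with H3K4me1 in all 4 tumours and no H3K4me3. At chr7:118762837-118788314 it was 22524, 25055, 1075 and 2829 bp, with H3K27ac and H3K4me3 in none of the tumours. At chr7:104327636-104363167 it was 18203, 31956, 3397 and 935 bp, with H3K27ac and H3K4me1 in all 4 and H3K4me3 in none. The group ranges did not overlap in any of these 6 domains, which were chosen for their ratio. The longest common domain, chr18:65047320-65334188, was covered over 261455, 225565, 252733 and 252648 bp and held all 3 active marks in all 4 tumours.

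**Figure D3:**
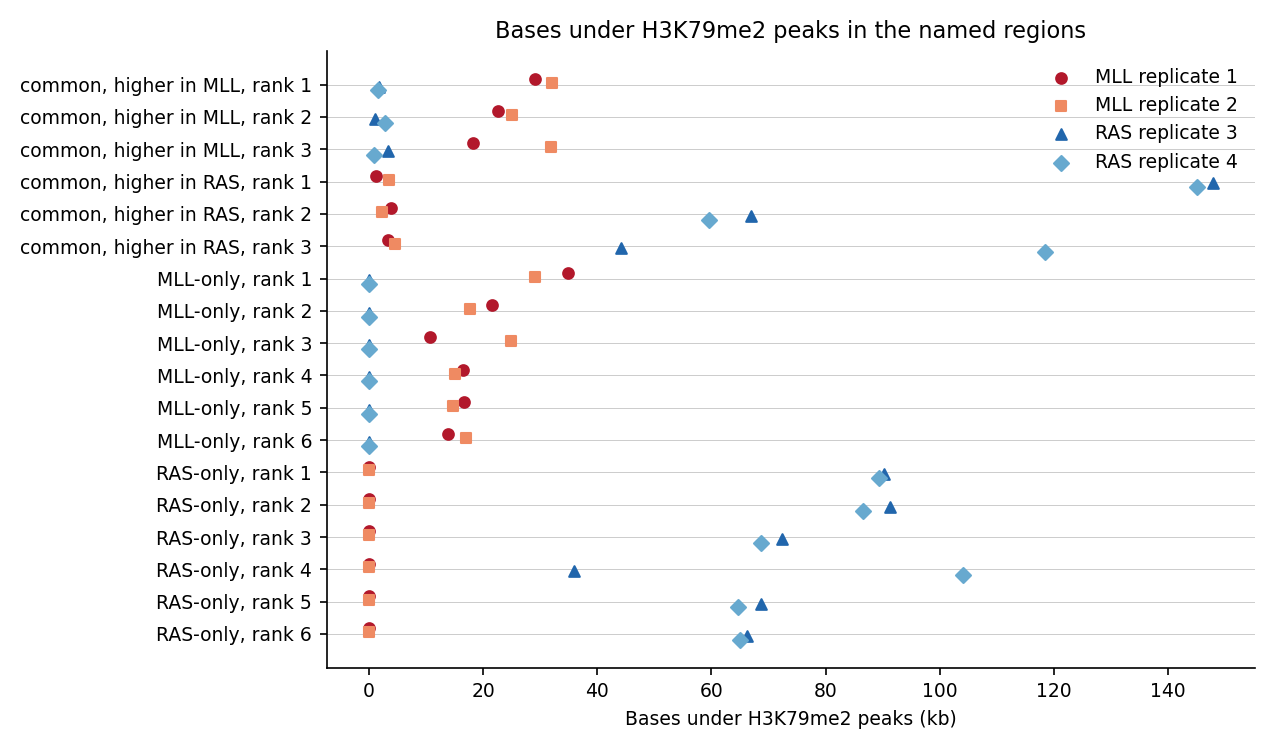
Covered length of H3K79me2 (kb) in each library for the named regions, 1 point per library. The regions covered in RAS libraries alone range from 36007 to 104115 bp per library, and the regions covered in MLL libraries alone from 10700 to 34800 bp.

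Of 1892 union domains with 20 kb or more covered, 1776 were common, 21 RAS-only (1.11%) and 1 MLL-only (0.0529%), and 10 of the RAS-only domains exceeded 50 kb. A further 47 long domains were missing only from MLL replicate 1 and 31 only from MLL replicate 2, against 1 missing only from RAS replicate 3 and 6 only from RAS replicate 4. The longest RAS-only domain by covered length, chr10:41905481-41996025, was covered over 90207 and 89387 bp in the RAS libraries. It was followed by chr3:27516911-27609037 with 91235 and 86532 bp, chr5:66933789-67009779 with 72284 and 68752 bp, and chr5:119011025-119119849 with 36007 and 104115 bp. The remaining named regions are chr6:127985106-128053954 with 68735 and 64722 bp and chr2:27533052-27599310 with 66259 and 65099 bp. None of the 6 held an H3K79me2 peak in either MLL library.

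The RAS-only long domains carried active marks in the MLL tumours. Of the 21 RAS-only long domains, the number with H3K27ac was 20 in each tumour, counted separately, and the number with H3K4me1 was 20, 20, 21 and 21 in replicates 1 to 4. This is close to the share among the 1776 common domains of the same size, which held H3K27ac in 91.5%, 97.9%, 96.5% and 96.2% and H3K4me1 in 93.2%, 98.0%, 98.5% and 97.1%. H3K4me3 was present in 14 and 17 of them in the MLL tumours and in 16 and 16 in the RAS tumours, against 57.2%, 86.9%, 87.1% and 86.4% of the common ones. H3K27ac covered 9.54% and 24.0% of their span in the MLL tumours, against 5.50% and 15.7% of the span of those common domains. In the RAS tumours the values were 34.7% and 29.4% against 25.9% and 25.3%. All 6 named RAS-only regions held H3K27ac and H3K4me1 in all 4 tumours, and 5 held H3K4me3 in all 4. These regions were picked for their H3K79me2 alone, and the differences in H3K27ac between them and common domains were not tested. The H3K27ac list of MLL replicate 2 had 82.2% of its bases inside H3K79me2 peaks, against 28.2% to 46.5% in the other tumours. Without that list, the H3K27ac values of the MLL tumours rest on replicate 1 alone, with 20 of 21 domains and 9.54% of the span. An overlap of 1 bp counted as presence, and H3K27ac and H3K4me1 were present on most domains of this length in each tumour.

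Properties of the lists moved with this result. The nearest MLL peak lay at a median of 2508 bp from a RAS-only long domain (range 1258 to 68990 bp), and within 5 kb for 17 of 21. When such near peaks counted as presence, 4 RAS-only long domains were left, and with gaps of up to 3 kb closed there were 5. With gaps of 0 bp there were 60, with peaks of score 100 or more 34, and with equal numbers of best-scored peaks 21, against 0, 4 and 5 MLL-only ones. Among peaks of 50 kb or more, 40% of 40 in MLL replicate 1 and 17.4% of 86 in MLL replicate 2 had a score under 100, against 6.67% of 45 and 14.3% of 7 in the RAS libraries. Among peaks of 5 to 10 kb this share was 0.678% and 0.704% in MLL and 0.0231% and 0% in RAS. Peaks of 50 kb or more with a score under 100 thus numbered 16 and 15 in the MLL lists and 3 and 1 in the RAS lists, and their part in the result was not tested.

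The MLL-only named regions were shorter. The longest, chr18:44784529-44822255, was covered over 34800 and 29113 bp in the MLL libraries, with H3K4me1 in all 4 tumours and H3K27ac in MLL replicate 1 alone. The others were chr18:47491972-47516405 with 21625 and 17665 bp, chr19:57321450-57347665 with 10700 and 24841 bp, chr18:69704566-69727964 with 16449 and 15046 bp, chr18:44713798-44739441 with 16740 and 14656 bp and chr12:100780966-100799522 with 13826 and 16974 bp. Of the 6, 4 lay on chromosome 18, which held 41 of all 1012 MLL-only domains and 766 of the 22171 union domains. Of these 4, chr18:44713798-44739441 and chr18:44784529-44822255 lie near each other, so they may not be separate places. All 6 held H3K4me1 in both MLL tumours, and of the others only the chr19 region held H3K4me1 in a RAS tumour. H3K27me3 lay on 4 of the 6 in at least 1 RAS tumour and on 1 in an MLL tumour. Among all 18 MLL-only domains with 10 kb or more covered, H3K4me1 lay on 13, 12, 3 and 4 in replicates 1 to 4 and H3K27me3 on 2, 4, 10 and 8. Over the 3744 common domains with 10 kb or more covered, H3K4me1 lay on 87.0%, 94.3%, 95.1% and 91.3% and H3K27me3 on 0.588%, 1.10%, 2.80% and 1.18%.

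Active marks were compared on the domains next, with a domain counted as marked if a peak of the other mark in the same tumour shared at least 1 bp with it. On each library's own domains the differences depended on the settings. H3K27ac lay on 42.6% and 39.5% of the domains in the MLL tumours and on 48.6% and 44.6% in the RAS tumours (exact permutation p = 0.333, adjusted p = 0.515). With the peak's midpoint required inside the domain, the difference turned from -5.57 to 13.4 percentage points, and with equal numbers of best-scored H3K27ac peaks it was -14.2. It was -1.90 points with gaps of 0 bp and -3.53 without RAS replicate 3. H3K4me1 lay on 41.2%, 45.9%, 45.8% and 41.9% (exact permutation p = 1), and H3K4me3 on 19.5%, 38.7%, 33.2% and 29.7% (exact permutation p = 1), with overlapping groups for both. With the same number of best-scored H3K79me2 peaks from each library the differences were -13.7 points for H3K27ac, -10.3 for H3K4me1 and -9.17 for H3K4me3.

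The other lists differ in extent, and this bears on every comparison of marks. H3K27ac peaks covered 20.0 and 22.1 Mb in the MLL tumours and 115.6 and 113.3 Mb in the RAS tumours, H3K4me1 15.52, 24.95, 46.83 and 55.60 Mb, and H3K4me3 3.18, 33.04, 26.97 and 32.56 Mb. In MLL replicate 2, 82.2% of the bases under H3K27ac peaks lay inside H3K79me2 peaks, against 28.2% to 46.5% in the other tumours. In RAS replicate 4 the H3K9me3 list had 31.9% of its bases inside H3K79me2 peaks, against 6.29% to 8.01% in the other tumours. Their part in the differences between tumours was not tested, and values without the H3K27ac list of MLL replicate 2 and the H3K4me3 list of MLL replicate 1 are given where they change a result.

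On RAS-only domains H3K27ac and H3K4me1 were present more often in the RAS tumours. On average H3K27ac was so in the other classes of domains too, and H3K4me1 in all of them but MLL-only domains. On the 624 RAS-only domains H3K27ac was present on 13.8% and 9.46% in the MLL tumours and on 42.1% and 42.5% in the RAS tumours, a difference of -30.7 percentage points (exact permutation p = 0.333, adjusted p = 0.515). H3K4me1 was present on 9.78% and 14.4% against 33.2% and 36.2% (-22.6 points, exact permutation p = 0.333, adjusted p = 0.515). H3K4me3, the promoter mark, was present on 3.37% and 12.2% against 13.6% and 15.1% (-6.57 points, exact permutation p = 0.333, adjusted p = 0.515). The groups did not overlap for any of the 3 marks. Without the H3K4me3 list of MLL replicate 1 the H3K4me3 difference was -2.16 points. With the domains redefined, it was -2.46 points without MLL replicate 1 and -2.64 without RAS replicate 4. On common domains, which serve as the reference, H3K27ac was present on 68.9% and 69.5% in the MLL tumours and on 83.1% and 81.0% in the RAS tumours. H3K4me1 was present on 68.1%, 77.5%, 80.4% and 71.5% of them. H3K4me3 was present on 36.4%, 71.7%, 71.5% and 71.6% (-17.5 points), so only MLL replicate 1 stood apart.

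The H3K27ac difference was -12.9 points on common domains, -19.3 on domains in 3 libraries, -15.4 on those in 1 library of each group and -13.2 on those in a single library. In the same order the H3K4me1 difference was -3.17, -5.17, -5.98 and -5.44 points. Among domains spanning 2 to 5 kb the H3K27ac difference was -28.7 points on common and -34.1 on RAS-only domains. H3K4me1 differed by -0.84 points on common and -29.1 on RAS-only domains of that span. The difference between these classes was not tested. Taken relative to the common domains of the same tumour, the difference on RAS-only domains was -17.8 points for H3K27ac and -19.4 points for H3K4me1, and it turned to 10.9 points for H3K4me3. As a ratio to the share on common domains H3K4me3 did not turn, with 0.092 and 0.170 in the MLL tumours and 0.191 and 0.210 in the RAS tumours. Without the H3K4me3 list of MLL replicate 1 the relative difference for H3K4me3 was -2.29 points, and without the H3K27ac list of MLL replicate 2 that for H3K27ac was -15.3 points. With the midpoint required inside the domain the H3K27ac difference was -7.53 points, and with equal numbers of best-scored peaks of the other mark the H3K4me1 difference was -14.7 points. Without RAS replicate 4 and with the domains redefined, the differences were -17.8 and -9.70 points. Counted domain by domain, 136 RAS-only domains (21.8%) held H3K27ac in both RAS tumours and neither MLL tumour, and 0 held the reverse. Among common domains these numbers were 557 (5.94%) and 22.

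On the 1012 MLL-only domains the active marks were sparse in all tumours. H3K27ac was present on 16.9% and 5.24% in the MLL tumours and on 22.0% and 17.5% in the RAS tumours (-8.70 points, exact permutation p = 0.333, adjusted p = 0.515). Without the H3K27ac list of MLL replicate 2 the difference was -2.87 points, with the midpoint required inside the domain -1.09, and relative to common domains it turned to 4.196, or to 10.4 without the H3K27ac list of MLL replicate 2. As a ratio to the share on common domains the values were 0.245 and 0.075 in the MLL tumours and 0.265 and 0.216 in the RAS tumours, lower on average in MLL with overlapping groups. H3K4me1 was present on 15.3% and 21.7% against 13.2% and 11.6% (6.13 points, exact permutation p = 0.333, adjusted p = 0.515), and without MLL replicate 2 the difference turned to -0.42. H3K4me3 was present on 4.05%, 14.0%, 12.5% and 12.1%, with overlapping groups (exact permutation p = 1). Among MLL-only domains, 46 (4.55%) held H3K4me1 in both MLL tumours and neither RAS tumour, and 13 (1.28%) the reverse, against 137 (1.46%) and 362 (3.86%) of common domains. For H3K27ac the numbers on MLL-only domains were 1 and 52 (5.14%).

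The repressive mark H3K27me3 was rare on H3K79me2 but least rare on MLL-only domains. It was present on 1.58% and 5.14% of them in the MLL tumours and on 12.6% and 7.91% in the RAS tumours. On common domains the values were 0.448%, 0.863%, 2.22% and 0.714%, and on RAS-only domains 1.12%, 1.76%, 1.92% and 0.481%. This comparison was added after the values were seen and has no test, and the H3K27me3 list of RAS replicate 3 covered 102.5 Mb against 10.8 to 32.5 Mb in the other tumours.

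**Figure D4:**
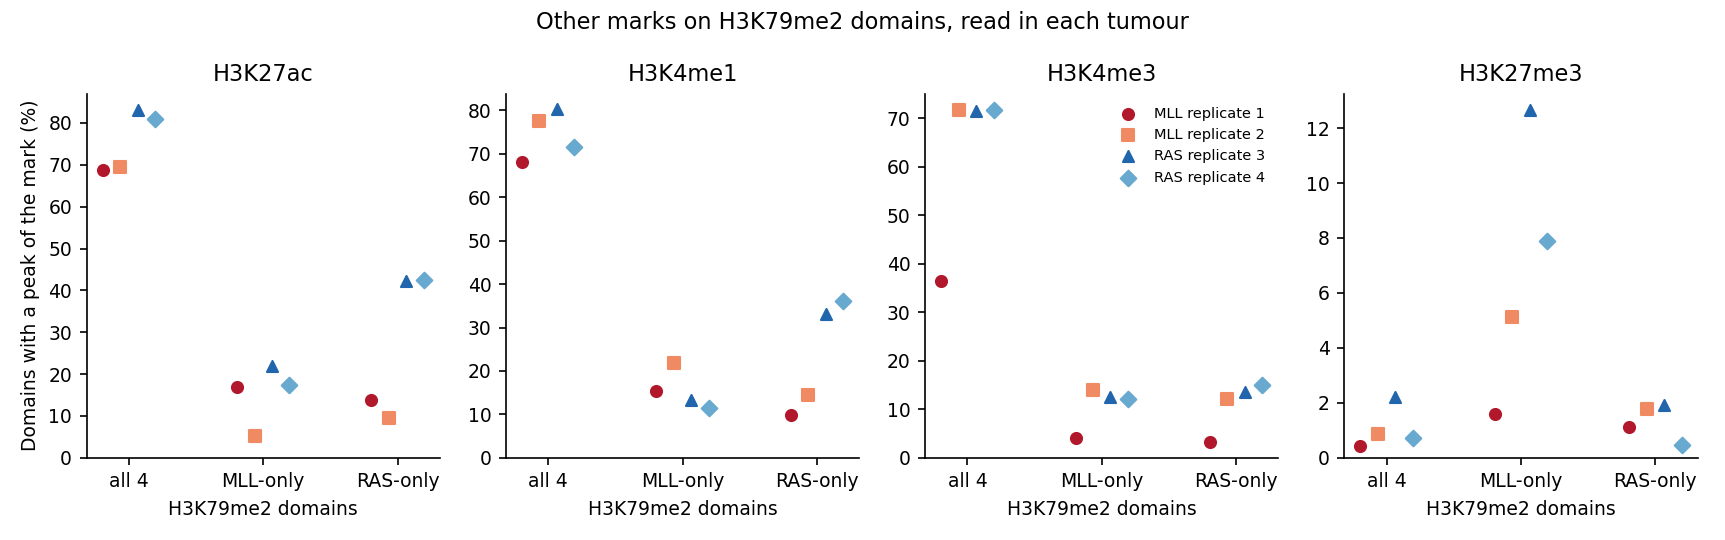
Share of domains (%) with a peak of H3K27ac, H3K4me1, H3K4me3 or H3K27me3 (1 panel each), for common (all 4), MLL-only and RAS-only domains, 1 point per tumour. On RAS-only domains the 2 RAS tumours stand above the 2 MLL tumours for H3K27ac (42.1% and 42.5% against 13.8% and 9.46%).

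Domains with an active mark were longer than those without in all 4 tumours, and a domain counted as marked from an overlap of 1 bp, so length and mark are not independent. Domains with the repressive mark H3K9me3 were also longer, with medians of 6990, 8453, 6115.5 and 11127 bp against 3810.5, 4079, 2892 and 1928 bp without it. For H3K27me3 the medians were 3985, 4973, 2428 and 1827 bp with the mark and 3855, 4112, 2924 and 2181 bp without it, shorter with it in both RAS tumours. Domains with H3K27ac had medians of 8185 and 10922.5 bp in the MLL tumours and 6198 and 4841 bp in the RAS tumours, against 2289.5, 2365, 1447 and 1106 bp without it. Of domains of 20 kb or more, 93.6%, 95.6%, 98.1% and 98.7% held H3K4me1 and 51.7%, 77.3%, 76.5% and 74.1% held H3K4me3. H3K9me3 lay on 50.8% of these long domains in RAS replicate 4 and on 2.19% to 4.43% in the other tumours.

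H3K4me3 lay near an end of the H3K79me2 domain in both tumour types. In domains of 5 kb or more, the median distance of an H3K4me3 peak from the nearer end was 9.33% and 5.68% of the domain length in the MLL tumours and 9.52% and 7.15% in the RAS tumours (exact permutation p = 0.667, adjusted p = 0.810). The outer 10% of the length at either end held 52.3%, 67.9%, 51.6% and 61.5% of these peaks, and the groups overlapped. Of 5052 common domains spanning 10 kb or more, 3370 (66.7%) had H3K4me3 toward the same end in replicates 2 to 4, and they were turned so that this end came first.

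The choice of these domains fixes that H3K4me3 is high at this end in replicates 2 to 4 and that H3K79me2 begins there. Only the shapes and the libraries are therefore described. The share of domains covered by H3K79me2 reached its maximum of 92.6% at 3000 bp and 94.0% at 5000 bp in MLL replicates 1 and 2, and of 92.5% and 84.9% at 4000 bp in RAS replicates 3 and 4. H3K4me3 was highest at 500 bp, with 15.0%, 82.8%, 80.8% and 83.3% of domains. H3K4me3 of MLL replicate 1 took no part in the choice, so its height is not a like comparison with the others. H3K27ac was also highest at 500 bp in MLL replicate 1 (43.8%) and in the RAS tumours (87.0% and 84.1%). In MLL replicate 2 it was highest at 5000 bp with 25.1%, where H3K79me2 of that tumour was highest too, and at 0 bp it was at 2.64% against 19.2% to 83.0% in the other tumours. H3K4me1 was highest at 2000 to 2500 bp, with 20.7%, 28.8%, 34.3% and 26.6%.

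**Figure D5:**
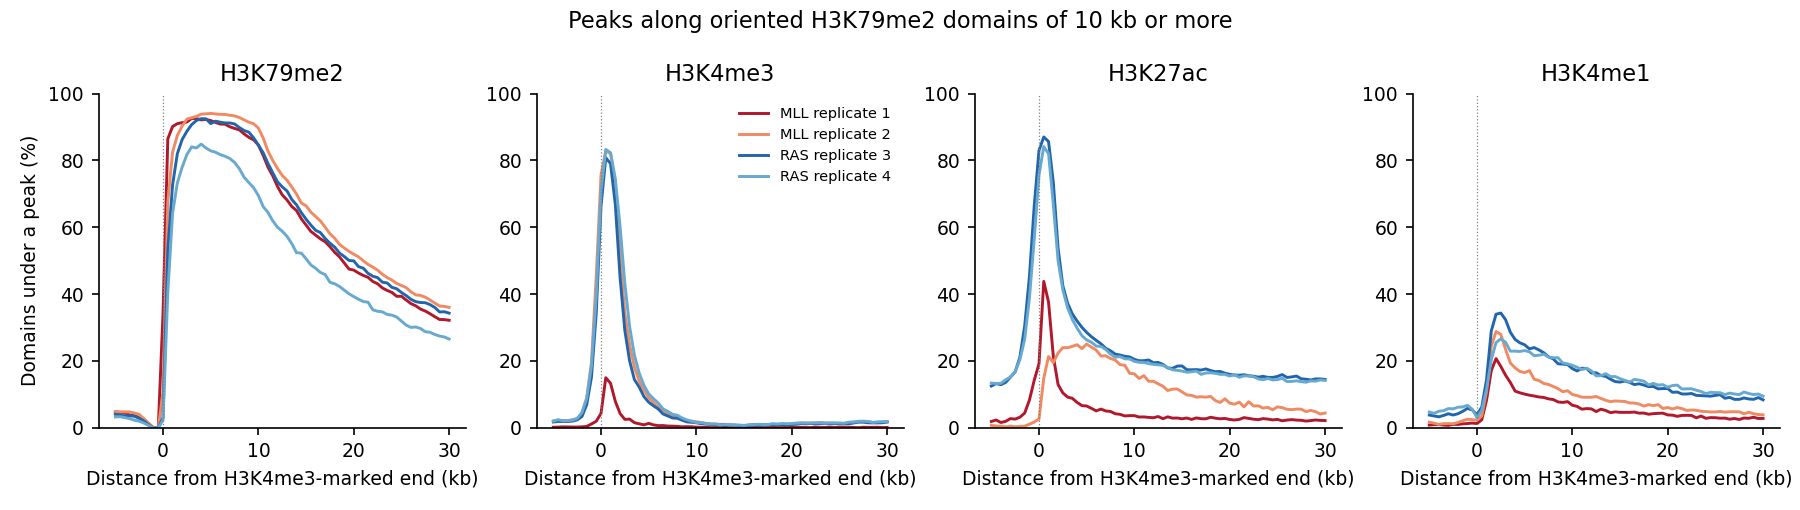
Share of the 3370 oriented common domains (%) covered by H3K79me2 and the active marks at each distance (bp) from the H3K4me3 end, 1 line per tumour. H3K79me2 reaches between 84.9% and 94.0% within 5000 bp in all 4 tumours, and the H3K27ac line of MLL replicate 2 lacks the maximum at 500 bp seen in the other tumours.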

How the data were processed

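Per the submitters' processing notes, the tools named are CASAVA 1.7, Bowtie, MACS and deepTools and the build is mm9; parameters are not given in the sources used here. The deposited files hold 1 peak list per library, with start and end positions and the authors' score, whose floor of 50 would arise from -10 times the log10 p at 1e-05. They hold no read counts, so the depth behind each list is unknown and no interval is printed. Overlapping peaks were merged, gaps of up to 1 kb closed and domains compared in Python 3.11.15 with numpy 2.4.6 and scipy 1.17.1; the steps were tested on simulated data. Means of 2 libraries were compared by exact two-sided permutation tests. Regions were named by rule: among common domains the 5 longest and, with 10 kb or more covered, the 3 extremes of the ratio each way, and the 6 longest of each group-only class. Members and lists were chosen with earlier results of these data known. No mm9 genome or annotation was used here, so planned gene and cell type lists were not applied and no sequence is shown. Input samples were not analysed here. Figures were drawn with matplotlib 3.10.9.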

Additional observations from a re-analysis of the deposited data

How the results depend on the processing

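Over 23 results, 227 alternative values were computed, of which 180 kept their direction (for counts, stayed within 1.5 times), 22 turned direction and 25 counts moved further; no p-value could pass 0.05 under any of them. No paired analysis was possible because the 4 H3K79me2 libraries carry the different replicate numbers 1 to 4 and the groups share none. The difference in the number of domains was 0.18 (log2) with equal numbers of best-scored peaks and 0.088 among domains of 2 kb or more; the number of peaks is equal by construction in the first of these and was not recomputed. The share of covered bases in long domains was -1.58 points with gaps of up to 3 kb, and -0.29 to 7.29 points with 1 library left out. MLL-only domains numbered 2027 with equal numbers of peaks, 1697 with gaps of 0 bp, 606 with gaps of up to 3 kb, and 1359 to 3518 with 1 library left out. RAS-only domains numbered 189, 1325 and 344 under the same 3 settings. They numbered 336 with no peak within 5 kb, 338 among union domains of 2 kb or more, and 1199 to 2485 with 1 library left out. Equal numbers of peaks cut almost only the RAS lists, so that shift was largely built in. With no peak within 5 kb MLL-only domains numbered 676, and among union domains of 2 kb or more 773. Common domains with both libraries of a group above the other numbered 1873 (MLL) and 2612 (RAS) after the library median was subtracted. RAS-only domains of 20 kb or more numbered 60, 5, 34 and 4 with gaps of 0 bp, gaps of up to 3 kb, a score of 100 or more and no peak within 5 kb, and MLL-only ones numbered 0, 0 and 4 under the first 3 and 5 with equal numbers of peaks.

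For active marks on a library's own domains, H3K27ac gave 13.4 points with the midpoint inside the domain. H3K4me1 gave 0.227 points with gaps of up to 3 kb, 1.07 with the midpoint and 5.64 with equal numbers of its best-scored peaks, and -2.64 to 2.05 with 1 library left out. H3K4me3 gave 1.87 points with gaps of 0 bp and -11.9 to 7.21 with 1 library left out. On MLL-only domains, H3K27ac relative to common domains gave 4.196 points (10.4 without the H3K27ac list of MLL replicate 2), H3K4me1 gave -0.42 to 8.24 with 1 library left out, and H3K4me3 gave 14.3 relative to common domains (1.65 without the H3K4me3 list of MLL replicate 1) and -9.02 to 1.78 with 1 library left out, the highest without the H3K4me3 list of MLL replicate 1 alone. On RAS-only domains H3K4me3 gave 10.9 points relative to common domains, and -2.29 without the H3K4me3 list of MLL replicate 1. The values relative to common domains are differences in points; as ratios, H3K4me3 on RAS-only domains was lower in both MLL tumours, and on MLL-only domains H3K27ac (0.245 and 0.075 against 0.265 and 0.216) and H3K4me3 (0.111 and 0.196 against 0.174 and 0.168) overlapped between groups. The H3K4me3 position differed by -0.0265 to 0.00997 of the domain length with 1 library left out. The cause of these changes was not tested. Where a whole replicate was left out, MLL-only and RAS-only domains were defined anew from the remaining libraries. Settings on domains of 2 kb or more, on subtracted medians, on common domains as reference, on doubted lists and on long domains of a single group were chosen after seeing the data.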

Other observations

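The share of H3K79me2 bases on each chromosome varied between libraries. Chromosome 15 held 5.95% of the covered bases of RAS replicate 4 and 4.02% to 4.46% in the other libraries, and chromosome 6 held 7.06% against 5.82% to 5.97%. On chromosome 8 both RAS libraries were higher, with 5.73% and 6.55% against 5.11% and 5.09% in the MLL libraries, and on chromosome 10 both MLL libraries were, with 5.33% and 5.35% against 4.67% and 4.74%. Both MLL libraries were above both RAS libraries on 7 of the 19 autosomes, and the reverse held on 4. With 2 libraries against 2, some such separations arise without a difference. The shares of a library sum to a fixed total, so the chromosomes are not independent. The share of union domains that were MLL-only ranged from 2.04% on chromosome 16 to 7.20% on chromosome 5, chromosome Y aside. These values were picked after all chromosomes had been seen and have no test.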
